A study of Mus musculus with 16 samples.

Results

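The 41 interferon response genes described here are a list drawn up by what the genes are known to do, as receptors, transcription factors, sensors and targets of interferon, and the list was taken whole. All 41 were found among the 26180 mouse genes with a curated RefSeq transcript, and together they have 51 distinct transcription start sites (TSSs). The cells were CD8+ T cells from the spleens of OT1 mice, whose T cells carry 1 transgenic receptor, for an ovalbumin peptide. Anti-CD3 on the plate, soluble anti-CD28 and IL-2 activated them over 48 h, and IL-2 alone expanded them over 3 more days. Vehicle (Veh) or 0.5 μM GSK2879552 (GSK) was present throughout, the latter a compound that blocks the histone demethylase LSD1 irreversibly. Both groups thus share the transgene, the stimulation and the IL-2, and the inhibitor is the only labelled difference. Chromatin immunoprecipitation with sequencing (ChIP-seq) was done for RNA polymerase II (Pol II), for LSD1 and for the histone marks H3K27ac, H3K4me3, H3K4me2 and H3K4me1, with 1 library for each antibody and treatment. The 12 libraries gave 12 peak lists. With no replicates, no value below has an error between samples and no difference was tested. The number of animals behind a library is not given in the sources used here.

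Interferons are secreted alarm signals. Type I interferon binds the receptor chains IFNAR1 and IFNAR2 and activates a complex that holds STAT2 and IRF9 and reads a repeated GAAA motif called the interferon-stimulated response element (ISRE). Interferon gamma binds IFNGR1 and IFNGR2 and acts through another element, the gamma-activated site (GAS), and many antiviral genes answer to both. H3K4me1 and H3K4me2 can be demethylated by LSD1. H3K4me3 cannot, and it is the usual mark of active and poised promoters. The comparison asks whether inhibition of LSD1 goes with a change of marks or of Pol II at these genes.

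The promoters of these genes carry the ISRE letters often, and the promoters below are shown because they combine such a match with a call that differed between the treatments. The letters searched were GAAANNGAAA for the ISRE, with its reverse complement TTTCNNTTTC, and the palindrome TTCNNNGAA for the GAS, over 250 bases before to 50 bases after each start. The RefSeq promoter table (GRCm38.p6) held 30 of the 41 genes. It did not list Mx1, Mx2, Oas2, Usp18, Dhx58, Gbp4, Gbp6, Iigp1, Rtp4, Zbp1 and Parp14. ISRE letters were found in 16 of the 30 genes, or 53.3%, and in 1079 of all 27025 genes of the table, or 3.99%. GAS letters were found in 11 of the 30, or 36.7%, against 9.55% of all genes. Bst2, Gbp5, Igtp and Eif2ak2 carried both, and at Bst2 an ISRE match and the GAS match overlap. The 6 promoters with the highest fold in the list that differed are printed 5′ to 3′ along the gene, the ISRE letters in capitals. For Isg15, Gbp3, Irgm1 and Ifit1 these are the 250 bases before the start. For Eif2ak2 and Ddx58, whose match lies just after the start, the site is printed with 10 bases on either side.
Isg15, chr4:156200819-156201068, minus strand: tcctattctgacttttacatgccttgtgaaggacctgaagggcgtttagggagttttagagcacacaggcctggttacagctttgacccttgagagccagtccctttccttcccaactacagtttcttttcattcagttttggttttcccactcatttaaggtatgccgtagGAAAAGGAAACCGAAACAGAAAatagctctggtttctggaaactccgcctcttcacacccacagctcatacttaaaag
Gbp3, chr3:142559794-142560043, plus strand: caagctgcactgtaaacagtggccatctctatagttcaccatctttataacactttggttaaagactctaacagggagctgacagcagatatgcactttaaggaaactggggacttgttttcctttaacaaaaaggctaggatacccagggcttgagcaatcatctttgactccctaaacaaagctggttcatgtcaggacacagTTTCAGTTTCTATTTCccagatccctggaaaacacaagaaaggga
Eif2ak2, chr17:78882535-78882564, minus strand: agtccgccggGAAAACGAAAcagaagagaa
Ddx58, chr4:40239804-40239833, minus strand: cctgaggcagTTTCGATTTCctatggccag
Irgm1, chr11:48871421-48871670, minus strand: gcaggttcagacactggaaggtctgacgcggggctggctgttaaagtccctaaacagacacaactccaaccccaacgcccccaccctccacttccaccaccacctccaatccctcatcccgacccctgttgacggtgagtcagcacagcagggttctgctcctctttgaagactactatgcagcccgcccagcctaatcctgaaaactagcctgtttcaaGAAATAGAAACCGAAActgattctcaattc
Ifit1, chr19:34640639-34640888, plus strand: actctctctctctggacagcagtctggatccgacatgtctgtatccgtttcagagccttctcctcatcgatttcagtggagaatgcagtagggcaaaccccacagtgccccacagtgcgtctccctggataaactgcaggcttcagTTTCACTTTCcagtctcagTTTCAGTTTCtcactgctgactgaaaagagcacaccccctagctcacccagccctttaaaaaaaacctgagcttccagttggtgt
Isg15 held 3 overlapping matches between 78 and 57 bases before its start. Gbp3, Irgm1 and Ifit1 held 2 each. A match is a description of letters and not of binding.

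A Pol II peak covered the ISRE letters of 7 genes in Veh cells and of 2 in GSK cells. The 7 were Ifit1, Isg15, Bst2, Igtp, Irgm1, Trim30a and Eif2ak2, and the 2 were Bst2 and Igtp. Over all 1079 genes of the table with ISRE letters, Pol II covered them at 10.8% in Veh and 7.23% in GSK, so the count was lower in GSK there too. LSD1 was the other way round, with Bst2 alone covered in Veh and Ifih1, Ddx58, Bst2 and Irgm1 covered in GSK, against 9.73% and 11.8% of the 1079 genes. H3K4me3 covered the letters of 13 of the 16 genes in each treatment, against 24.7% and 25.5%. Of the genes with a Pol II promoter peak in Veh only, 9 were in the table and 6 of them held the ISRE letters. Of those with a Pol II peak in both treatments, 3 of 10 did, and of those with none, 7 of 11 did.

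The cells were checked against markers. Cd3e, Cd8a, Cd8b1, Thy1 and Cd2 all had an H3K4me3 promoter peak in both treatments. Of 8 markers of B, myeloid, CD4 T and NK cells, Cd14 alone had one, and none had a promoter Pol II peak in either treatment. Promoter Pol II was at Cd3e, Cd8b1 and Thy1 in both treatments and at Cd8a and Cd2 in neither. The lists differ in length and strength. The GSK H3K27ac list has 2751 peaks against 7410 in Veh, the GSK H3K4me2 list 9437 against 15219, and the GSK H3K4me1 list 40272 against 34387. The lists hold no read counts. The study states that the Veh libraries were the deeper ones for H3K27ac and H3K4me2 and the GSK libraries for H3K4me1 and Pol II. Depth and treatment cannot be told apart for these antibodies, and in bulk cells a mark in fewer cells and a weaker mark in each cell cannot be told apart either.

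At promoters, taken as 1 kb on either side of any TSS, H3K4me3 was nearly complete and the other marks were partial. Of the 41 genes, 40 had H3K4me3 in both treatments. Its fold enrichment, the authors' ratio of ChIP signal to local background, ran from 2.96 to 8.59 in Veh and from 2.93 to 8.97 in GSK. Isg15, a ubiquitin-like protein joined to other proteins in infected cells, was the exception with none within 1 kb. The 2 H3K4me3 peaks within 5 kb of it in each treatment lay at start sites of neighbouring genes. In Veh, H3K4me1 and Pol II each marked 26 promoters (63.4%), H3K4me2 25 (61.0%), H3K27ac 21 (51.2%) and LSD1 16 (39.0%). Over all genes the same shares were 30.3% for H3K4me1, 29.3% for Pol II, 39.0% for H3K4me2, 20.5% for H3K27ac and 36.3% for LSD1. The Pol II and LSD1 lists reach down to weaker peaks than the histone lists, so shares of different antibodies are not at 1 limit. Most genes of the genome are silent in a given cell, so the genes with promoter H3K4me3 in either treatment are the closer background. Among these 13469 genes, LSD1 marked 68.2% in Veh, whereas it marked 40.0% of the 40 interferon genes with promoter H3K4me3. H3K4me1 marked 50.2% of the 13469 and 25 of the 40.

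**Figure D1:**
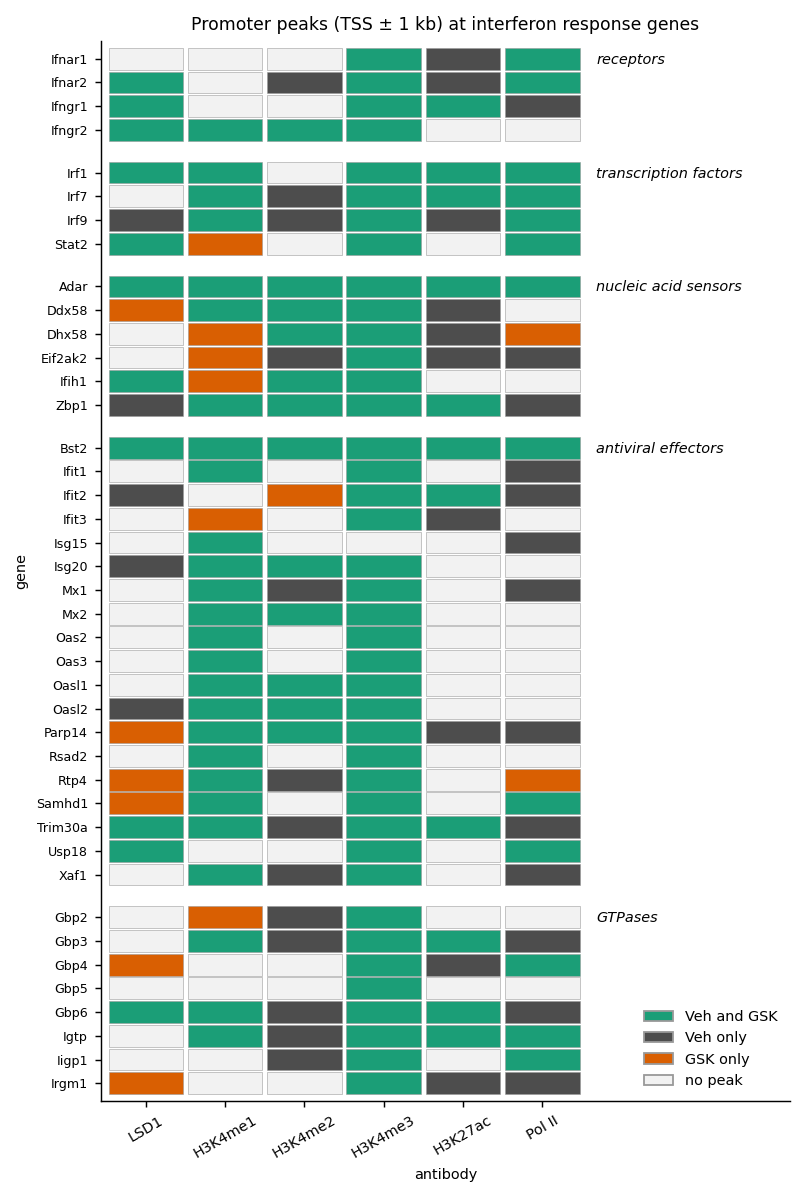
Promoter calls for each of the 41 genes (rows, by role) and each antibody (columns): a peak in both treatments, in Veh only, in GSK only or in neither. H3K4me3 is in both throughout except at Isg15, and the Pol II, H3K4me2 and H3K27ac columns hold 13, 13 and 10 Veh-only calls against 2, 1 and 0 GSK-only calls.

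Pol II was called in Veh only at 13 of the 41 promoters (31.7%) and in GSK only at 2 (4.88%), while 7.33% of all genes had it in Veh only and 2.94% in GSK only. Among genes with promoter H3K4me3 those shares were 13.5% and 5.0%. Among peaks with a −log10 q of at least 5, Pol II was in Veh only at 8 promoters and in GSK only at 1, against 7.23% and 1.75% of all genes. H3K4me2 was in Veh only at 13 promoters and in GSK only at 1, against 12.8% and 1.93% of all genes, and 23.2% of H3K4me3-marked genes had it in Veh only. H3K27ac was in Veh only at 10 and in GSK only at none, against 12.3% and 0.332%, and its Veh-only share of 24.4% lay near the 23.6% of H3K4me3-marked genes. H3K4me1 went the other way, with 6 GSK-only and no Veh-only promoters, against 9.85% and 3.41%. Among peaks with a −log10 q of at least 5 the H3K4me1 counts were 8 GSK-only and 6 Veh-only, against 9.26% and 3.42% of all genes. LSD1 was in GSK only at 6 and in Veh only at 5, against 9.74% and 4.44%. H3K4me3 differed at none, where 1.47% of all genes had it in GSK only and 0.332% in Veh only. The GSK-only shares of LSD1 and H3K4me1 among the interferon genes, 14.6% each, lay near those of H3K4me3-marked genes, 16.9% and 16.0%.

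**Figure D2:**
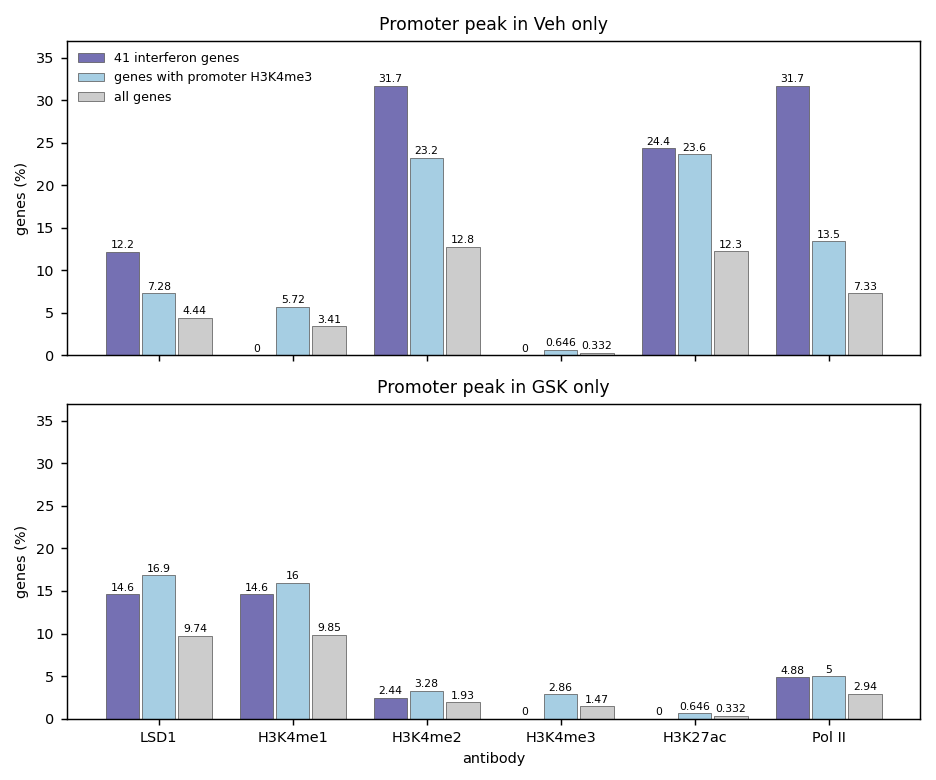
Share of genes (%) with a promoter peak in Veh only (upper) or GSK only (lower), for the 41 interferon genes, all genes with promoter H3K4me3 and all genes. The Veh-only Pol II bar of the interferon genes stands at 31.7% against 13.5% and 7.33%.

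Among the receptors, Ifnar1 and Ifnar2, the chains for type I interferon, had Pol II in both treatments. The Pol II fold was 7.30 in Veh and 4.87 in GSK at Ifnar1, and 4.98 and 4.05 at Ifnar2. Ifngr1, the ligand-binding chain for interferon gamma, had a Pol II promoter peak in Veh only, of fold 3.66. Ifngr2, its signalling partner, had no promoter Pol II peak, and its LSD1 fold was 3.57 in Veh and 5.48 in GSK. The Ifngr2 LSD1 peak thus ranked 47.8 percentile points higher within the GSK list than within the Veh list, the largest upward difference of the 11 genes with LSD1 in both. Its H3K4me2 peak, of fold 4.09 and 5.93, ranked 57 points higher. LSD1 was at 3 of the 4 receptors in both treatments, all but Ifnar1. H3K27ac was in both at Ifngr1 and in Veh only at Ifnar1 and Ifnar2.

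The transcription factors were the group with Pol II at every promoter in both treatments. Irf1, an early activator induced by interferon gamma, had Pol II folds of 10.7 in Veh and 8.75 in GSK. Irf7, the amplifier of type I interferon production, had 10.2 and 9.06. Irf9, the DNA-reading subunit of the complex activated by type I interferon, had 5.74 and 4.28. Stat2, its partner, had 4.84 and 2.82, a rank difference of −59.9 percentile points, the most negative of the 13 genes with Pol II in both. The promoter window of Stat2 overlaps that of Apof. The H3K4me3 fold of Stat2 was 8.19 in Veh and 8.84 in GSK, and its LSD1 fold 6.55 and 7.50. Irf9 had promoter LSD1, H3K4me2 and H3K27ac in Veh only, of folds 4.67, 4.13 and 4.87. Irf7 had the most negative H3K4me3 rank difference, −19.8 points, with folds of 8.03 and 6.59.

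Among the nucleic acid sensors, Adar, which edits double-stranded RNA, had all 6 antibodies in both treatments. Its LSD1 fold was 5.08 in Veh and 7.16 in GSK. Adar has 3 start sites, and LSD1 and H3K4me1 lay at the 2 upstream ones while Pol II and H3K27ac lay at the downstream one, so a call for the gene can join different promoters. Ifih1 and Ddx58, which encode the RNA sensors MDA5 and RIG-I, had no promoter Pol II peak. The LSD1 fold of Ifih1 was 4.44 and 6.87, and Ddx58 had LSD1 in GSK only, of fold 4.66. Eif2ak2, the RNA-activated kinase PKR, had Pol II, H3K4me2 and H3K27ac in Veh only, of folds 5.20, 4.27 and 4.20, and H3K4me1 in GSK only, of fold 4.24. Zbp1, a sensor of left-handed nucleic acid, had LSD1 and Pol II in Veh only, of folds 3.65 and 3.60. Dhx58, which encodes LGP2, had Pol II in GSK only, of fold 3.84, with the summit 883 bp into the gene.

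The 19 antiviral effectors held 7 of the 13 Veh-only Pol II calls. These were Isg15 at fold 6.16, Mx1 at 6.07, Parp14 at 5.53, Xaf1 at 4.61, Ifit2 at 4.59, Ifit1 at 4.32 and Trim30a at 3.38. Mx1 encodes a GTPase that blocks influenza-type viruses, and Ifit1 and Ifit2 encode proteins that bind foreign RNA. Rtp4 alone of the effectors had Pol II in GSK only, of fold 5.08, together with LSD1 in GSK only, of fold 2.84. Usp18, the protease that removes ISG15 and damps the receptor, had Pol II in both, of fold 11.1 in Veh and 5.02 in GSK. Samhd1, which depletes nucleotides, had 7.61 and 4.50. Bst2, the tether that holds budding virus at the cell surface, had all 6 antibodies in both treatments, with Pol II folds of 4.02 and 3.37. The remaining 8 effectors, Ifit3, Isg20, Mx2, Oas2, Oas3, Oasl1, Oasl2 and Rsad2, had no promoter Pol II in either treatment, and all 8 had H3K4me3 in both. Oas2 and Oas3 encode synthases of the messenger that switches on an RNA-cutting enzyme. Promoter H3K4me1 was in both treatments at 16 of these 19, at 26 of all 41 genes and at 7045 of the 26180 genes.

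The 8 interferon-inducible GTPases act on membranes around pathogens. Gbp4 had the highest Veh Pol II fold of all 41 genes, 11.7, with 7.92 in GSK, and LSD1 in GSK only, of fold 4.81. Gbp6 and Gbp3 had Pol II in Veh only, of folds 5.89 and 4.94. Irgm1 did too, of fold 3.84, and the summit of that peak lay at −851 bp from the start. A weaker Veh peak of Irgm1, of fold 3.32 with its summit at −245 bp from the start, covered the ISRE letters. Igtp had Pol II folds of 6.13 and 5.41, and Iigp1 of 3.83 and 3.10. H3K4me2 was found at 5 GTPase promoters in Veh, Gbp2, Gbp3, Gbp6, Igtp and Iigp1, and at none in GSK, while 39.0% of all genes had it in Veh and 28.2% in GSK, whose list is the shorter one. Gbp3 had the highest fold of the Veh-only H3K4me2 calls, 5.28. Gbp5 had no promoter peak but H3K4me3, and every one of the 41 genes had a promoter peak in at least 1 list.

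**Figure D3:**
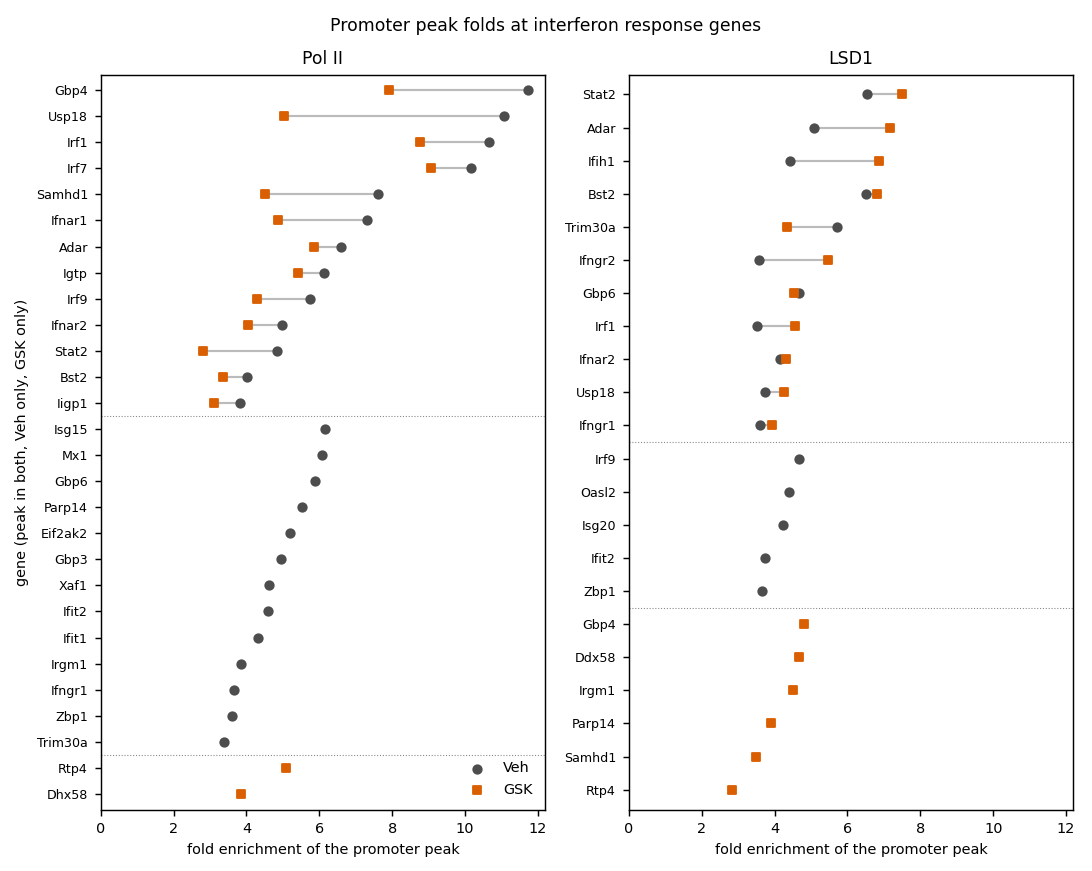
Fold enrichment of the promoter peak of each gene for Pol II (left) and LSD1 (right) in Veh (circles) and GSK (squares), grouped as called in both, Veh only and GSK only. The GSK Pol II square is left of the Veh circle at all 13 genes called in both, and the LSD1 square is right of it at 9 of 11.

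The Pol II values can be set beside the whole list, which was itself weaker in GSK. At the 13 genes with Pol II in both treatments the fold was lower in GSK at all 13, with a median ratio of GSK to Veh of 0.809 and a range of 0.454 to 0.891. Over all 5759 genes with Pol II in both, it was lower in GSK at 82.4% and the median ratio was 0.811. The median shift in rank within the list was −4.90 percentile points at the interferon genes and −0.188 over all genes. The −log10 p, which grows with depth as well as with fold, was lower in GSK at 11 of the 13 and higher at Irf7 (33.5 in Veh and 37 in GSK) and Adar (14.3 and 14.9). The fold ratio at shared peaks was thus near that of all genes, whereas the share of calls shared by both treatments was lower. Of 26 interferon promoters with Pol II in Veh, 13 had it in GSK (50.0%), while 75% of all such genes did. Among peaks with a −log10 q of at least 5 these shares were closer, 9 of 17 (52.9%) against 61.0%. Interferon genes with a Veh-only call had weaker Veh peaks, of median fold 4.61, than those called in both, of 6.60, and over all genes those medians were 4.36 and 5.77. By strength of the Veh peak, 1 of 5 interferon genes in the lower 50 percentiles of the list was called in GSK against 46.0% of all genes. Between the 50th and 80th percentile it was 3 of 9 against 67.8%, and above the 80th 9 of 12 against 91.9%. The interferon share lay below that of all genes in each range, on at most 12 genes. These ranges were set after the values were seen. Isg15, Mx1 and Gbp6 were the 3 above the 80th percentile with no GSK peak, and their −log10 p in Veh was 12.7, 12.5 and 13.0. In 12 of the 13 Veh-only genes, all but Isg15, H3K4me3 was present in both treatments.

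**Figure D4:**
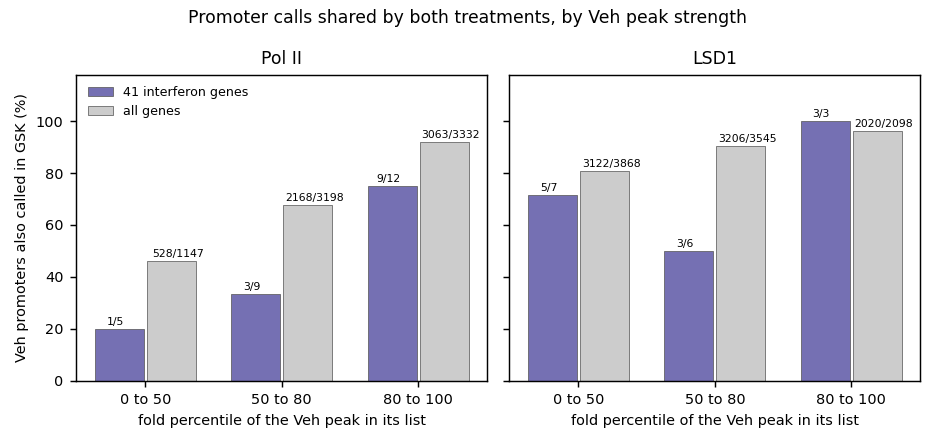
Share (%) of promoters with a Veh peak that also had a GSK peak, by the fold percentile of the Veh peak in its list, for Pol II (left) and LSD1 (right), with the number of genes above each bar. For Pol II the interferon genes reach 20.0%, 33.3% and 75% against 46.0%, 67.8% and 91.9% of all genes.

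The Veh-only Pol II calls were not joined to 1 pattern of the other antibodies. Counted over all start sites of a gene, LSD1 was in neither treatment at 6 of the 13, in both at 3 (Gbp6, Trim30a and Ifngr1), in Veh only at Ifit2 and Zbp1, and in GSK only at Irgm1 and Parp14. Over all genes, 1918 had Pol II in Veh only. LSD1 was in neither treatment at 360 of these, in both at 1106, in Veh only at 142 and in GSK only at 310. H3K27ac was in both at 6 and in Veh only at 3. H3K4me2 was in Veh only at 6. For these marks the same counts over all genes were not computed. Trim30a has 2 start sites, with Pol II and H3K4me2 at the upstream one and LSD1 and H3K27ac at the other, so its LSD1 and H3K27ac calls do not lie where its Pol II call does. Pol II summits lay close to the starts, with a median of 35.5 bp into the gene in Veh and 62 bp in GSK, and 22 of 26 and 13 of 15 lay within 250 bp.

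**Figure D5:**
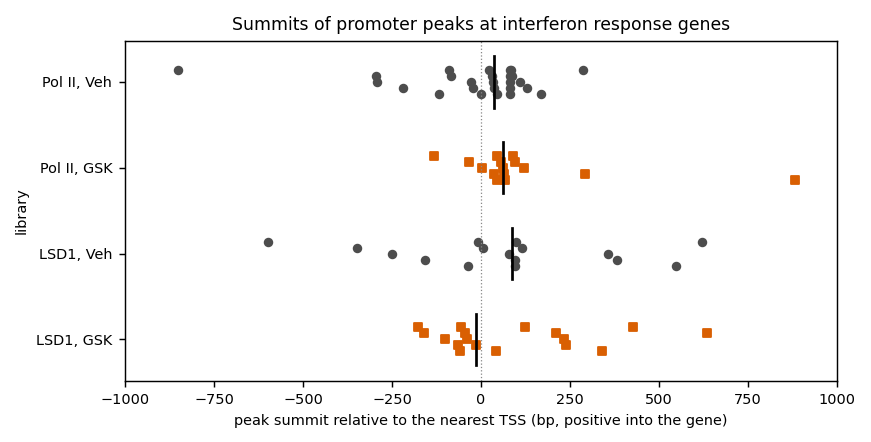
Distance (bp) from the nearest TSS to the summit of the highest-fold promoter peak of each gene, for the Pol II and LSD1 libraries, with positive values into the gene and the black line at the median. Pol II medians are 35.5 bp (Veh) and 62 bp (GSK), and LSD1 medians 87 bp (Veh) and −15 bp (GSK).

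The share of promoter LSD1 calls also made in GSK was lower at the interferon genes than over all genes, on few genes. Of 16 interferon genes with promoter LSD1 in Veh, 11 had it in GSK (68.8%), against 87.8% of all genes. Among peaks with a −log10 q of at least 5 it was 3 of 5, against 78.9%. By strength of the Veh peak, from the weakest range up, it was 5 of 7, 3 of 6 and 3 of 3. Over all genes these shares were 80.7%, 90.4% and 96.3%. The 11 were Irf1, Stat2, Usp18, Ifih1, Bst2, Gbp6, Trim30a, Adar, Ifnar2, Ifngr1 and Ifngr2, and the fold was higher in GSK at 9 of them. The median ratio of GSK to Veh was 1.14 at the 11, with a range of 0.758 to 1.55, and 1.15 over all genes. After Ifngr2, the peaks of Ifih1, Irf1 and Adar ranked 33.5, 32.0 and 19.4 percentile points higher in GSK. Trim30a was at −38.1, with folds of 5.72 and 4.33. In Veh only were Irf9 at fold 4.67, Oasl2 at 4.41, Isg20 at 4.22, Ifit2 at 3.74 and Zbp1 at 3.65. In GSK only were Gbp4 at 4.81, Ddx58 at 4.66, Irgm1 at 4.50, Parp14 at 3.91, Samhd1 at 3.50 and Rtp4 at 2.84. The Veh-only peaks lay between the percentiles 28.9 and 63.9 of their list and the GSK-only peaks between 0.951 and 59.4. LSD1 was in neither treatment at 19 of the 41 promoters, among them Ifit1, Ifit3, Isg15, Mx1, Rsad2 and Gbp2. Over all genes it was in neither at 14118 of 26180.

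H3K4me1 and H3K4me2 are the substrates of LSD1, and they differed in opposite directions. The 6 GSK-only H3K4me1 promoters were Eif2ak2 at fold 4.24, Gbp2 at 3.74, Ifih1 at 3.57, Ifit3 at 3.20, Dhx58 at 3.07 and Stat2 at 2.97. LSD1 was present in Veh at 2 of these, Stat2 and Ifih1, and in GSK there too. Over all genes, 2579 had H3K4me1 in GSK only, and LSD1 was in both treatments at 1395 of them and in Veh only at 170. The 5 of them in the promoter table, all but Dhx58, held the ISRE letters, but no H3K4me1 peak of either treatment covered those letters. Of the genes with promoter H3K4me1 in both treatments 9 of 19 held them, and of those with none 2 of 6. All 26 promoters with H3K4me1 in Veh had it in GSK, against 88.7% of all genes. Among peaks with a −log10 q of at least 5 it was 14 of 20, against 82.4%. At these 26 the largest upward rank differences were at Oasl2 (32.6 points, fold 3.92 and 4.57), Parp14 (26.4) and Oas2 (18.6). The largest downward ones were at Trim30a (−31.4), Adar (−26.4, fold 5.32 and 4.21) and Rtp4 (−25.3). Of 25 promoters with H3K4me2 in Veh, 12 had it in GSK (48.0%), against 67.2% of all genes. Among peaks with a −log10 q of at least 5 it was 8 of 15 (53.3%), against 55.3%. Ifit2 was the 1 promoter with H3K4me2 in GSK only, of fold 4.21, and its LSD1 was in Veh only. The Veh-only H3K4me2 promoters beside the GTPases were Rtp4 at fold 4.56, Eif2ak2 at 4.27, Xaf1, Trim30a, Irf9, Ifnar2, Irf7 and Mx1. Among the promoters with H3K4me2 in both, Isg20 ranked 41.9 points higher in GSK, with folds of 3.52 and 4.95. Dhx58 was at −40.1, with 5.53 and 4.77. With the lists cut to equal length, the H3K4me2 counts came to 4 Veh-only and 2 GSK-only genes, against 5.58% and 6.91% of all genes.

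H3K27ac was held at 11 of 21 interferon promoters (52.4%), against 40.2% of all genes. Among peaks with a −log10 q of at least 5 the order was the reverse, 2 of 15 (13.3%) against 29.8%. The 11 were Ifit2, Irf1, Irf7, Bst2, Gbp3, Gbp6, Igtp, Trim30a, Zbp1, Adar and Ifngr1. The fold was higher in GSK at 10 of the 11, as it was at 89.5% of all genes, and Adar was the exception at 6.30 and 5.41. Ranks are set by what else a list holds, and the GSK H3K27ac and H3K4me2 lists are shorter and have higher median folds, so for these marks a lower rank can go with an equal or higher fold. Ifit2 ranked 27.9 points higher in GSK, with folds of 3.78 and 5.36, and Bst2 26.4. Irf7 was at −46.4, although its folds were 4.44 and 4.54. The 10 Veh-only promoters were Irf9 at fold 4.87, Eif2ak2 at 4.20, Ifnar2 at 3.98, Ddx58 at 3.92, Dhx58, Ifnar1, Ifit3, Parp14, Irgm1 and Gbp4. This direction was not kept with the lists cut to equal length, which gave 6 GSK-only and 2 Veh-only genes, against 2.95% and 3.39% of all genes. At a −log10 q of at least 5 it was kept, with 13 Veh-only and 0 GSK-only genes, against 10.8% and 0.214%. The cause was not tested.

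For H3K4me3 the median shift in rank was 0.219 points at the interferon genes and 0.541 over all genes. The upward shifts were led by Rsad2, the antiviral enzyme viperin, at 20.7 points with folds of 4.79 and 5.78. Mx2 followed at 14.5 points, Oasl2 at 13.4 and Oas2 at 11.2. The downward shifts after Irf7 were Zbp1 at −16.2, Ddx58 at −12.7 and Ifit3 at −10.4. Of the 40 genes, 11 had H3K4me3 in both treatments with neither Pol II nor H3K27ac in either. The share of this pattern over all genes was not computed, so whether it is usual is not known. The 11 genes were Isg20, Mx2, Oas2, Oas3, Oasl1, Oasl2, Rsad2, Ifih1, Gbp2, Gbp5 and Ifngr2.

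Over the gene bodies extended by 5 kb on each side, Pol II was in Veh only at 16 of 41 genes and in GSK only at 3, against 11.3% and 7.37% of all genes. Ifih1, Ddx58, Oas3 and Oasl1 joined the Veh-only group and Ifit3 the GSK-only group. The Oasl1 peak lay within 1 kb of a start of another gene. The Ifih1 peak, of −log10 p 3.87, was near the caller's limit. Ifngr1 had Pol II in each treatment but at different places. Its GSK peak, of fold 2.15 and −log10 p 3.71, overlapped no Veh peak. H3K4me2 was in Veh only at 13 and in GSK only at 3, against 15.5% and 1.93%. H3K27ac was in Veh only at 9 and in GSK only at none, against 16.2% and 0.34%. H3K4me1 was in GSK only at 3 and in Veh only at none, against 7.77% and 2.22%. LSD1 was in Veh only at 10 and in GSK only at 7, against 6.97% and 9.6%. H3K4me3 was at all 41 in both, where 0.351% of all genes had it in Veh only and 1.62% in GSK only. The median body window of the 41 was 27.3 kb, of all genes 23.5 kb. The windows of 12 genes also hold the start of another gene, and the 41 windows form 39 separate loci, of which 15 had Pol II in Veh only and 2 in GSK only.

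Away from any start site, LSD1 peaks were few at these genes. There were 13 in Veh and 9 in GSK, and 4 of the 13 were overlapped by a GSK peak (30.8%), against 35.9% over all genes. The highest Veh fold was in Ifngr2, 6.84 kb into the gene, at 7.62 in Veh and 5.07 in GSK. Trim30a had 6.98 and 6.01 at 41.4 kb, Samhd1 5.95 and 5.09 at 15.9 kb, and Oas3 4.70 and 4.13 at 1.84 kb. All 4 shared sites had a lower fold in GSK, and the same share over all genes was not computed. At promoters 9 of the 11 shared calls had a higher fold in GSK, as did 72.2% of all genes with LSD1 in both. The highest Veh-only sites were at Trim30a (fold 4.93), Ifit3 (4.45), Samhd1 (4.15) and Mx1 (4.07), and the highest GSK-only sites near Rsad2 (5.71), Bst2 (5.51), Ifnar2 (5.04) and Oas2 (4.79). At none of the 9 Veh-only distal LSD1 sites was H3K4me1 found in GSK only. H3K4me2 was in GSK only at 1 of them, a site 26.8 kb from the Usp18 start and past the end of the gene. There H3K4me3 reached fold 10.6 in Veh and 10.7 in GSK, above the 4.11 and 3.59 of the Usp18 promoter itself, and Pol II was 3.69 and 2.82. Of the other marks, distal H3K4me1 was the most frequent, with 40 peaks in Veh and 41 in GSK. Of the 40, 30 were overlapped by a GSK peak, against 87.1% over all genes. The highest Veh fold was at Trim30a, 25.5 kb into the gene, at 5.36 in Veh and 4.66 in GSK. The highest GSK fold was 15.0 kb into Ifngr2, at 5.15 and 6.41.

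A further 34 genes of the interferon pathway were counted in the same way. Pol II was in Veh only at 5 promoters and in GSK only at 2, against 7.33% and 2.94% of all genes. Of 21 Veh promoters, 16 had it in GSK (76.2%), near the 75% of all genes. The 5 were Sp100 at fold 5.60, Ikbke at 5.36, Herc6 at 5.28, Psmb8 at 4.13 and Tyk2 at 3.00. Pml, the scaffold of nuclear bodies, was among the GSK-only genes, at 3.68. Irf8 had folds of 13.9 and 11.8, Socs3, a brake on cytokine receptors, 12.4 and 9.87, and B2m, the light chain of MHC class I, 12.4 and 10.3. LSD1 was in both treatments at 17 of the 34, against 8348 of all 26180 genes. It was in Veh only at Ikbke and Irf2 and in GSK only at Ptpn2, Ptpn6 and Socs1, against 4.44% and 9.74% of all genes. Irf2 was listed as a brake on the pathway, as were Ptpn2, Ptpn6 and Socs1. LSD1 at Cmpk2 had folds of 6.79 and 9.90 and at Herc6 4.46 and 7.49. At Ifng, the gene of interferon gamma itself, LSD1 was 5.54 in Veh and 3.60 in GSK, and no promoter Pol II was called in either. H3K4me1 was in GSK only at 4, Mavs, Cgas, Tyk2 and Ifi35, and in Veh only at none, against 9.85% and 3.41%. H3K4me2 was in Veh only at 6 and in GSK only at 1, against 12.8% and 1.93% of all genes. H3K27ac was in Veh only at 10 and in GSK only at none, against 12.3% and 0.332%. Among genes with promoter H3K4me3 these Veh-only shares were 23.2% for H3K4me2 and 23.6% for H3K27ac. H3K4me3 was in both at 30 and in GSK only at 1, Tlr3, against 1.47% of all genes in GSK only. Tap1 and Psmb9 share 1 promoter and so the same peaks.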

How the data were processed

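The 12 peak lists, 1 for each of 6 antibodies and 2 treatments, were read as deposited. Per the methods, the authors aligned reads to mm10 (Bowtie2, unique hits only), discarded PCR duplicates and ran MACS2 against input with a p-value limit of 0.001. The lowest −log10 p in a list was 3.00 to 3.01 for LSD1 and Pol II but 4.99 to 6.47 for the histone marks. The lowest −log10 q was 0.523 to 0.787 for the former and 3.01 to 3.03 for the latter. The histone lists thus end at a stricter limit. They also describe picking equal read numbers for comparisons of signal, and whether peaks were called on such reads is not stated. The narrow peak format was used for Pol II and LSD1 and the broad format for histone marks. Each peak carries a fold enrichment, which the authors computed as a ratio of ChIP to local background, and the deposited −log10 p and −log10 q. The deposited score column repeats one of these and was not used. The 4 input samples were not analysed here. The lists hold no read counts, so the depth of a library is not known from them.

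Genes, TSSs and bodies came from curated RefSeq transcripts of GRCm38.p6, the assembly of mm10. A gene was called where a peak overlapped its window by 1 bp or more, and it took the highest fold over all its TSS windows. Ranks are percentiles of fold within a list, and rank differences are GSK minus Veh. Genes were named by rule: per antibody up to 4 highest Veh-only and GSK-only calls and up to 4 largest rank differences each way, and the same for peaks outside TSS windows. All other named values, chiefly the remaining Pol II and LSD1 calls, the role groups and the ranges of Veh peak strength, were chosen after values were seen. The 41 genes and the lists of pathway genes and markers were chosen with earlier results of these data known. Analyses ran in Python 3.11.15 with numpy 2.4.6, and the overlap code was tested on simulated peaks. Alternatives were lists of equal length (the top peaks by −log10 p), a −log10 q of at least 5, an overlap of 200 bp, promoter windows of 500 bp and 2.5 kb, bodies without flank, ranks by −log10 p and other background genes. Values of 1 gene of the pathway list are not reported here.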

Additional observations from a re-analysis of the deposited data

How the results depend on the processing

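The number of GSK-only minus Veh-only genes was recomputed for each antibody, at promoters under 5 alternatives and at gene bodies under 4. For Pol II it was −11 at promoters, with a range of −12 to −7, and −13 at gene bodies, with a range of −13 to −7. It was negative under each of these alternatives. With lists of equal length the H3K27ac difference went from −10 to 4 at promoters and from −9 to 6 at gene bodies, and the H3K4me2 difference from −12 to −2 at promoters and from −10 to 1 at gene bodies. At a −log10 q of at least 5, H3K27ac came to −13 at promoters and −13 at gene bodies, H3K4me3 went from 0 to 2 at both, LSD1 at gene bodies from −3 to 1, and H3K4me1 at promoters from 6 to 2. H3K4me1 at bodies without flank went from 3 to 0. At that −log10 q the gap to all genes was wider for H3K27ac, at −31.7% of the 41 against −10.6% at promoters and −14.6% at gene bodies, than for Pol II, at −17.1% against −5.48% and −6.68%. H3K27ac was −11 with a promoter window of 500 bp and −10 for bodies without flank. Ranked by −log10 p, its median rank difference went from −4.94 to −40.8 points. Of all 34 Veh LSD1 peaks at these genes, a GSK peak overlapped 50.0%, and of the 14 with a −log10 q of at least 5 it overlapped 78.6%. For peaks at any start site the share was 61.9%, against 83.0% over all genes, and for peaks elsewhere 30.8% against 35.9%. For peaks with that −log10 q the share over all genes was not computed. The cause of these shifts was not tested. With 1 library per antibody and treatment, no difference can be set against a spread between replicates, and a peak near the caller's limit may be listed in 1 treatment and missed in the other. No paired analysis was possible because each antibody and treatment had 1 library.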
